A study of Mus musculus with 346 samples.

Results

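The insulin-like growth factor (IGF) axis was examined here through 10 genes: the ligands Igf1 and Igf2, the receptors Igf1r and Igf2r, and the binding protein genes Igfbp2, Igfbp3, Igfbp4, Igfbp5, Igfbp6 and Igfbp7. They were picked by name, by matching the Entrez number of each row of the count files to a mouse symbol, and are 10 of 25171 genes analysed. All 10 were matched, and none was dropped for low counts.

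IGF-I and IGF-II are secreted growth factors that signal through the IGF type 1 receptor, a tyrosine kinase, while the type 2 receptor binds IGF-II and carries it to lysosomes. Secreted IGF-binding proteins hold the ligands outside the cell and set how much of them reaches the receptor, and proteases free the ligand again. In the mammary gland, IGF-I made in the stroma in response to growth hormone is known as a mediator of ductal growth at puberty, and IGFBP-5 is known for its rise when the gland involutes after lactation.

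The data were single-cell RNA-seq profiles of untreated mammary cells of inbred FVB/NJ mice, with 144 cells labelled Pre-puberty (2 weeks), 136 labelled Puberty (4.7 to 4.9 weeks) and 66 labelled Adult (10 weeks). Per the study's methods, cells with the endothelial, leukocyte or erythroid markers CD31, CD45 and TER119 were left out by sorting. They were captured on a Fluidigm C1 chip, which isolates each cell in a chamber before cDNA is made. The cells of a stage came from several mice, but no label ties a cell to a mouse, so each stage counted as 1 sample and no difference below has a replicate check. A coverage filter of 100000 reads and 1500 genes kept 116, 119 and 44 cells, with 109394 to 1189268 reads each and medians of 296638, 574442 and 334354. Levels are given as counts per 1000000 reads (CPM) summed over the cells of a stage, with exact Poisson intervals at 95%. Shares of cells were taken after each cell was thinned to 100000 reads and carry exact (Clopper-Pearson) binomial intervals at 95%. Both kinds of interval cover counting error only.

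All cells were labelled total epithelium, and this label was checked against marker genes. Of 14 pan-epithelial markers, the median pre-pubertal cell had a read of 0, the median pubertal cell of 10 and the median adult cell of 7. At pre-puberty 115 of 116 cells carried at least 10 of 24 Schwann cell markers, against 2 of 119 pubertal cells and 0 of 44 adult cells. The summed level of the 24 Schwann markers was 25072, 1692 and 1197 CPM in the order of age, and 6 of them were at 0 in the adult. The epithelial adhesion gene Epcam stood at 16.4, 940.4 and 1454 CPM in the order of age. The pre-pubertal cells are therefore called by their stage and not as epithelium, and stage and marker content cannot be told apart in any comparison with them. Cells with at least 8 of 16 fibroblast markers numbered 6, 9 and 4 in the order of age.

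The promoters of the 4 members that the results turn on are shown first, as 250 bases upstream of the RefSeq start in GRCm38.p6, written 5′ to 3′ on the strand of the gene. Igf1r and Igfbp7 had their highest levels at pre-puberty, Igfbp5 was the most abundant member at puberty and in the adult, and Igfbp2 lies next to Igfbp5. The windows are chr7:67952007-67952256 (plus strand) for Igf1r, chr5:77408046-77408295 (minus) for Igfbp7, chr1:72874866-72875115 (minus) for Igfbp5 and chr1:72824230-72824479 (plus) for Igfbp2. Capitals mark GC boxes, searched as GGGCGG on both strands.
Igf1r: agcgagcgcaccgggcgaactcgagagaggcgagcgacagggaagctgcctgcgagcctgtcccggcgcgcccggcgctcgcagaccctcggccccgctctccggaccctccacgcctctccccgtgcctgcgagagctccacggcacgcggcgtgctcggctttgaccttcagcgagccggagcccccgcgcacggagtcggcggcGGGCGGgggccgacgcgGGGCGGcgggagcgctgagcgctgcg
Igfbp7: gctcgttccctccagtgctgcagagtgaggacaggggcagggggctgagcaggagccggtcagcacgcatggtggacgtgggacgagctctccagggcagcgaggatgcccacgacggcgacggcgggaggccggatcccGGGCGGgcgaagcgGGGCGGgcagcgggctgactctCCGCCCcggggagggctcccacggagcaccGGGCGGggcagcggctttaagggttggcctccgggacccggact
Igfbp5: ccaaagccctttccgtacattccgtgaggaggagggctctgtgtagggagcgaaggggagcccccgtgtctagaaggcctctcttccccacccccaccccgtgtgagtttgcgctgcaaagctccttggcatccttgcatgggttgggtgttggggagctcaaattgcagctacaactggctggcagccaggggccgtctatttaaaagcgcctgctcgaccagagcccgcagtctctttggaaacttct
Igfbp2: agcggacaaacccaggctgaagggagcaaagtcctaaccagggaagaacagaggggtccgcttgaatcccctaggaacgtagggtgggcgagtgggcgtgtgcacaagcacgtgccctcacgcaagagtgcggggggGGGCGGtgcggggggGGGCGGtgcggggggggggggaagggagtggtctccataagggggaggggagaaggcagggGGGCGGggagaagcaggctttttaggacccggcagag

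The GC box occurred 2 times in the Igf1r window, 4 times in that of Igfbp7, 3 times in that of Igfbp2 and 0 times in that of Igfbp5, and 32.7% of 32851 mouse promoter windows of this length held it. The TATA box (TATAAA, both strands) and the CCAAT box (CCAAT, both strands) were in none of these 4 windows, against 12.4% and 33.9% of all windows. Among the other members, Igfbp4 and Igfbp6 had a TATA box, Igf1 and Igfbp6 had a CCAAT box, and so did 1 of 4 starts of Igf2. The G+C content was 77.6% for Igf1r, 74% for Igfbp7, 67.2% for Igfbp2 and 58.8% for Igfbp5. These matches describe letters in a window and not sites of binding. Igfbp2 and Igfbp5 lie tail to tail on chromosome 1 with 5590 bases between them.

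Per length, as reads per 1000 bases per 1000000 reads (RPKM), Igfbp7 led the pre-pubertal cells and Igfbp5 led the pubertal and the adult cells. At pre-puberty the order was Igfbp7 (114 RPKM), Igfbp5 (63.1), Igf1r (26.5), Igfbp3 (10.4), Igfbp4 (9.51), Igfbp6 (7.62), Igf2 (3.94), Igfbp2 (2.55), Igf1 (1.69) and Igf2r (0.911). At puberty it was Igfbp5 (283), Igfbp6 (31.7), Igfbp4 (26.2), Igfbp7 (22.0), Igfbp3 (15.4), Igfbp2 (14.7), Igf1r (7.67), Igf2r (2.19), Igf2 (0.627) and Igf1 (0.0859). In the adult it was Igfbp5 (383), Igfbp7 (52.5), Igfbp4 (20.3), Igfbp3 (15.0), Igfbp2 (9.38), Igf1 (6.83), Igf1r (6.20), Igfbp6 (5.15), Igf2r (3.94) and Igf2 (0). Of the summed binding protein RPKM, Igfbp5 made up 30.5%, 72.0% and 78.9% in the order of age, and Igfbp7 made up 54.9%, 5.59% and 10.8%. In the plot of single cells, the binding protein genes other than Igfbp5 and Igfbp7 were seen as a few high cells over many cells at 0.

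**Figure D1:**
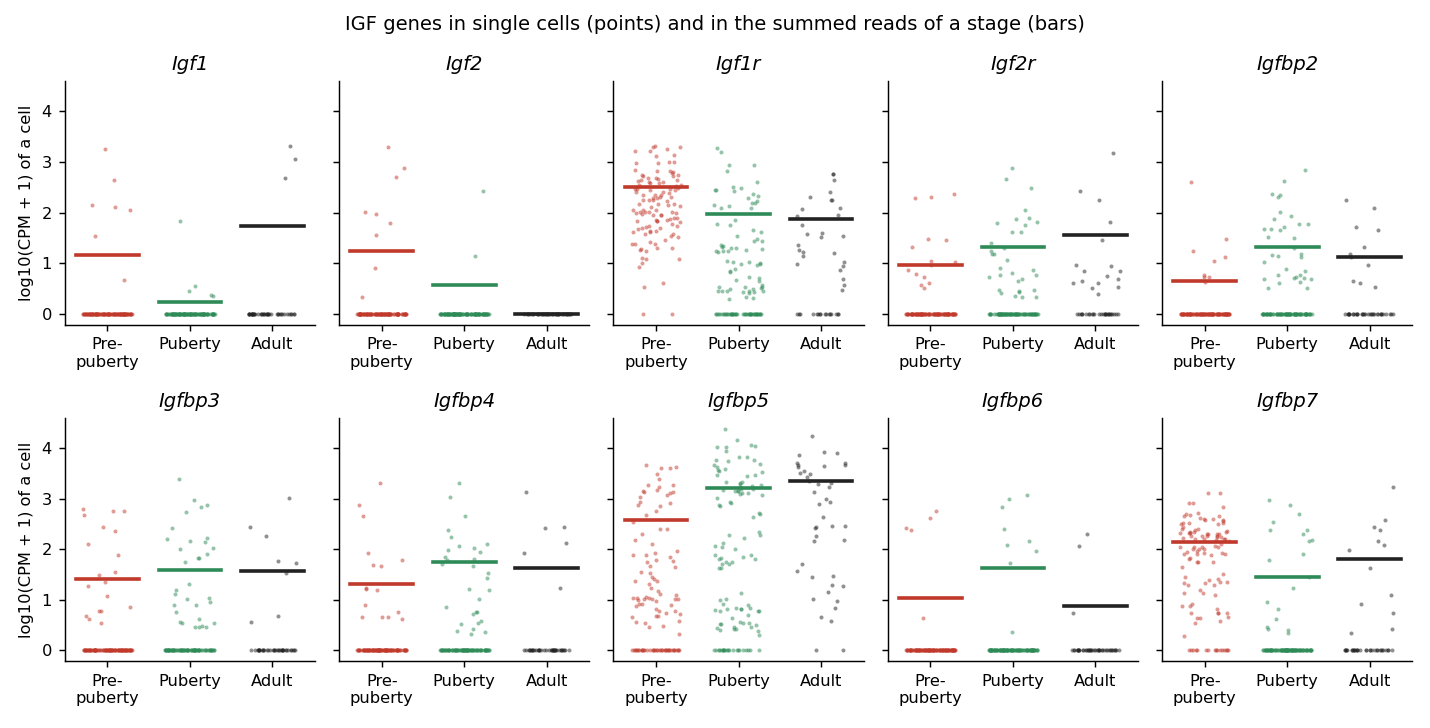
Level of each IGF gene in every kept cell (points; 116 pre-pubertal, 119 pubertal and 44 adult cells) as log10(CPM + 1) on the vertical axis, by stage on the horizontal axis. Bars are the level in the summed reads of a stage. Igf1r and Igfbp7 are spread over most pre-pubertal cells, and Igfbp5 over most adult cells, while the ligands show only a few cells above 0.

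Gene coordinates below are those of RefSeq for GRCm38.p6, while strands and exon overlaps are those of the GENCODE annotation of GRCm38. The ligands were rare, and few cells held nearly all of their reads. Igf1 (Entrez 16000, chromosome 10, 87858265 to 87937047, plus strand) stood at 13.2 CPM (12.1 to 14.4) in pre-pubertal cells, 0.672 (0.492 to 0.896) in pubertal cells and 53.4 (50.1 to 56.8) in adult cells. These levels came from 7, 5 and 3 cells with any read. The cell with the most reads held 63.5%, 91.3% and 60.6% of them, and the levels without that cell were 4.84, 0.0590 and 21.4 CPM. The pre-pubertal to pubertal log2 ratio of 1.68 was 0.96 without the top cells and 0.25 without fibroblast-rich cells.

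In the adult, the 3 cells with Igf1 reads had 2113, 1148 and 477 CPM, and the other 41 cells were at 0. The highest of them carried 9 of 10 endothelial markers and 1 of 14 pan-epithelial markers, and the lowest carried 14 of 16 fibroblast markers. The middle cell was mixed, with 4 pan-epithelial, 4 of 10 luminal, 5 of 8 mature luminal, 4 fibroblast and 3 endothelial markers. At pre-puberty the top cell had 1824 CPM and carried 15 fibroblast markers, and cells with at least 8 fibroblast markers held 87.0% of the Igf1 reads. At puberty the top cell had 67.6 CPM and carried 11 pan-epithelial, 6 endothelial and 5 of 7 pericyte markers, and the other 4 cells had 1 read each. No Igf1 read fell in any Krt14-positive cell at puberty or in the adult. The part of other cell types in the Igf1 levels was not tested.

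Igf2 (Entrez 16002, chromosome 7, 142650768 to 142666816, minus strand), an imprinted gene active in fetal growth, was seen at pre-puberty and hardly later. It stood at 16.7 CPM at pre-puberty (15.4 to 18.0), in 9 cells, and at 2.66 CPM at puberty (2.29 to 3.07), in 2 cells. In the adult it had 0 reads in 44 cells, with intervals that reach up to 0.197 CPM and 8.04% of cells. The pre-pubertal level was at least 104-fold higher than the adult one, counting 3 reads over the adult group, or 52.1-fold without the pre-pubertal cell with the most reads. At pre-puberty and at puberty 1 cell held much of the signal, 50.1% and then 95.6% of reads, and the levels without it were 8.36 and 0.118 CPM. The log2 ratio between these stages was past 1, but under 1 with a stricter coverage filter (200000 reads and 2000 genes) and without fibroblast-rich cells. Of the pre-pubertal reads, 58.2% lay in cells with at least 8 fibroblast markers. Only 1 pre-pubertal and 1 pubertal cell had reads of both ligands. Exons of Igf2 share 98 bases with the antisense gene Igf2os, and the counting was not stated to use strand, so reads there cannot be told apart.

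Of the 15 pre-pubertal cells with a ligand read, all 15 also had Igf1r reads, as did 5 of 6 pubertal and 2 of 3 adult cells. Igf1r reads were seen in 114 of 116 pre-pubertal, 73 of 119 pubertal and 28 of 44 adult cells. The pre-pubertal and adult counts are thus near the share over the whole stage, and the pubertal one rests on 6 cells.

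Igf1r (Entrez 16001, chromosome 7, 67952257 to 68233668, plus strand), the signalling receptor, was highest at pre-puberty and was then seen in nearly every cell. It stood at 317 CPM (312 to 323) in pre-pubertal cells, 91.9 (89.6 to 94.2) in pubertal cells and 74.3 (70.4 to 78.3) in adult cells. Single cells ranged from 0 to 2035 CPM (median 135) before puberty, from 0 to 1905 CPM (median 2.26) at puberty, and from 0 to 587 CPM (median 8.97) in adult tissue. The ranges overlap, and the difference lies in the middle of the distribution as well as in the sum. The share of thinned cells with a read was 95.7% (90.2 to 98.6) in pre-pubertal cells, 42.9% (33.8 to 52.3) in pubertal cells and 54.5% (38.8 to 69.6) in adult cells.

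The log2 ratio of Igf1r, taken after adding 5 CPM to both levels, was 1.74 with pre-puberty set over puberty and 2.02 with pre-puberty set over adult. Over 10 alternative settings it ranged from 1.68 to 2.61 and from 1.67 to 2.16. No single cell set the pre-pubertal level, as the top cell held 14.4% of the reads and the level without it was 279 CPM. Pre-pubertal cells numbered 1 to 37, of which 12 were kept, had 350.4 CPM, and the 104 cells from 38 on had 306 CPM. The log2 ratio of puberty over adult was 0.29 and ranged from -0.94 to 0.30, so the order of the 2 later stages was not fixed.

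Igf2r (Entrez 16004, chromosome 17, 12682406 to 12769706, minus strand), the receptor that clears IGF-II, had the lowest RPKM of all members at pre-puberty. It stood at 8.13 CPM (7.28 to 9.06) in pre-pubertal cells, 19.5 (18.5 to 20.6) in pubertal cells and 35.2 (32.6 to 38.0) in adult cells. The share of thinned cells with a read was 7.76% (3.61 to 14.2), 16.0% (9.90 to 23.8) and 22.7% (11.5 to 37.8), with overlapping intervals between neighbouring stages. Its log2 ratio was -1.61 for pre-puberty over adult, and stayed below -1 in all 10 alternatives run. The top cell held 64.7% of the pre-pubertal and 60.5% of the adult reads. Leaving the top cell of each stage out gave 2.95, 13.1 and 14.1 CPM.

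Igfbp5 (Entrez 16011, chromosome 1, 72858065 to 72874865, minus strand) was lowest at pre-puberty. It stood at 369 CPM (364 to 375) in pre-pubertal cells, 1658 (1648 to 1667) in pubertal cells and 2242 (2221 to 2264) in adult cells. Single cells ranged from 0 to 4638 CPM (median 8.82) before puberty, from 0 to 24075 CPM (median 64.1) at puberty, and from 0 to 17382 CPM (median 604) in adult tissue. The share of thinned cells with a read was 52.6% (43.1 to 61.9), 62.2% (52.8 to 70.9) and 88.6% (75.4 to 96.2). With pre-puberty set over puberty the log2 ratio was -2.15, and with pre-puberty set over adult it was -2.59, and both were below -1 in every alternative run.

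The pubertal cell with the most Igfbp5 reads held 17.5% of them, had 24075 CPM and carried 14 of 16 fibroblast markers and 8 pan-epithelial markers. Without cells rich in fibroblast markers the pubertal level was 1190 CPM, against 320 CPM in pre-pubertal and 2004 CPM in adult cells left. The adult top cell, with 17382 CPM, carried 0 fibroblast markers and 6 of 10 luminal markers. The log2 ratio of puberty over adult was -0.43 and ranged from -0.98 to -0.29.

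Among the 17 pre-pubertal cells with Krt14 above 40 RPKM, Igfbp5 stood at 1522 CPM (1492 to 1552), and in the 97 pre-pubertal cells with neither keratin at 148.7 CPM (144.6 to 152.9). The median cell had 826 CPM in the first set and 4.54 in the second. The levels in Krt14-positive cells of the other stages were 1629 CPM at puberty and 2809 in the adult, with medians of 1415 and 1906. Within this class the pre-pubertal level was close to the pubertal one, and the class held 14.7%, 24.4% and 43.2% of the kept cells in the order of age. The part of this make-up in the stage difference was not tested. A single cell held 49.5% of the Igfbp5 reads of pre-pubertal Krt14-positive cells, and the level without it was 942 CPM. The 10 cells with Krt14 alone and the 7 with both keratins at pre-puberty had a read of a median of 16 and 15 Schwann markers.

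Igfbp7 (Entrez 29817, chromosome 5, 77349240 to 77408045, minus strand), a secreted matrix-associated member of the family that binds IGFs weakly, was highest at pre-puberty and lowest at puberty. It stood at 138 CPM (134 to 141) in pre-pubertal cells, 26.6 (25.4 to 27.9) in pubertal cells and 63.6 (60.1 to 67.4) in adult cells. The share of thinned cells with a read was 77.6% (68.9 to 84.8) in pre-pubertal cells, 11.8% (6.58 to 19.0) in pubertal cells and 22.7% (11.5 to 37.8) in adult cells. The median pre-pubertal cell had 95.3 CPM, and the median pubertal and adult cells had 0. Of all members at any stage it had the smallest share in a top cell, 5.15% at pre-puberty, where 16 cells held the first 50% of its reads.

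The Igfbp7 log2 ratio with pre-puberty set over puberty was 2.17 and ranged from 2.02 to 2.44. Set over adult it was 1.06 and ranged from 0.48 to 1.92, and it was under 1 with the stricter coverage filter and in a depth window of 200000 to 600000 reads per cell. In the adult, 52.1% of the reads came from 1 cell with 1680 CPM. Leaving that cell out gave 31.1 CPM, and the log2 ratio of puberty over adult went from -1.12 to -0.52. The cell left out carried 4 pan-epithelial, 5 of 10 immune and 3 endothelial markers. The pre-pubertal level was 74.6 CPM in cells 1 to 37 and 160 CPM in the cells from 38 on. Exons of Igfbp7 share 85 bases with Polr2b on the other strand, so reads there cannot be assigned.

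Igfbp2 (Entrez 16008, chromosome 1, 72824480 to 72852474, plus strand) and Igfbp3 (Entrez 16009, chromosome 11, 7206086 to 7215498, minus strand; the main carrier of IGF-I in blood) had in common that their reads lay in Krt14-positive cells at every stage. Igfbp2 stood at 3.39 CPM (2.85 to 4.01) in pre-pubertal cells, 19.5 (18.5 to 20.6) in pubertal cells and 12.5 (10.9 to 14.2) in adult cells, in 9, 35 and 11 cells. Its log2 ratio with pre-puberty set over puberty was -1.55 and ranged from -2.23 to -1.41. Set over adult it was -1.06, and 3 of 10 alternatives brought it inside 2-fold. Igfbp3 stood at 25.3 CPM (23.8 to 26.9), 37.7 (36.2 to 39.1) and 36.8 (34.1 to 39.6), in 19, 33 and 8 cells, and the pubertal and adult intervals overlap.

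Krt14-positive cells held 97.8%, 84.2% and 99.6% of the Igfbp2 reads in the order of age, while they held 15.9%, 25.1% and 40.9% of the reads of all genes. For Igfbp3 the shares were 86.0%, 77.6% and 99.9%. Thinned cells with an Igfbp2 read had a read of a median of 12, 8.5 and 12 of 14 basal markers, against 2, 1 and 6 in the cells without. With an Igfbp3 read the medians were 5, 10 and 12, against 2, 1 and 6. At pre-puberty 1 cell held 74.6% of the Igfbp2 reads and another held 47.5% of those of Igfbp3.

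Igfbp4 (Entrez 16010, chromosome 11, 99040005 to 99052655, plus strand) and Igfbp6 (Entrez 16012, chromosome 15, 102144186 to 102149512, plus strand; a binding protein with a preference for IGF-II) differed in how far cells with fibroblast markers carried them. Those cells held nearly all Igfbp6 reads at each stage, and most Igfbp4 reads at pre-puberty and puberty but not in the adult. Igfbp6 stood at 9.83 CPM (8.89 to 10.8) in pre-pubertal cells, 40.9 (39.4 to 42.4) in pubertal cells and 6.64 (5.52 to 7.91) in adult cells. Cells with at least 8 of 16 fibroblast markers held 399 of its 400 reads before puberty, 2800 of 2801 during it and 124 of 124 in adult tissue. These were 4 of 6, 8 of 9 and 3 of 4 of the cells so defined, and Igfbp6 is not itself among the markers.

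Without the fibroblast-rich cells, Igfbp6 stood at 0.0254, 0.0158 and 0 CPM, so its log2 ratio with pre-puberty set over puberty went from -1.63 to 0.0028, and that for puberty over adult from 1.98 to 0.0046. The pubertal cells with the most Igfbp6 had 1183, 1005 and 682 CPM, and of these the first and the last had Krt8 or Krt18 above 40 RPKM and no Krt14. The summed Igfbp6 level of a stage was thus a measure of these few cells.

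Igfbp4 stood at 19.7 CPM (18.3 to 21.1) in pre-pubertal cells, 54.3 (52.6 to 56.1) in pubertal cells and 41.9 (39.0 to 45.0) in adult cells, in 16, 31 and 6 cells. The fibroblast-rich cells held 56.1%, 76.2% and 12.1% of its reads. The log2 ratio of pre-puberty over puberty was -1.26, and without these cells it was -0.44. In the adult 1 cell held 62.6% of the reads, the same cell that held most Igfbp7 reads.

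**Figure D2:**
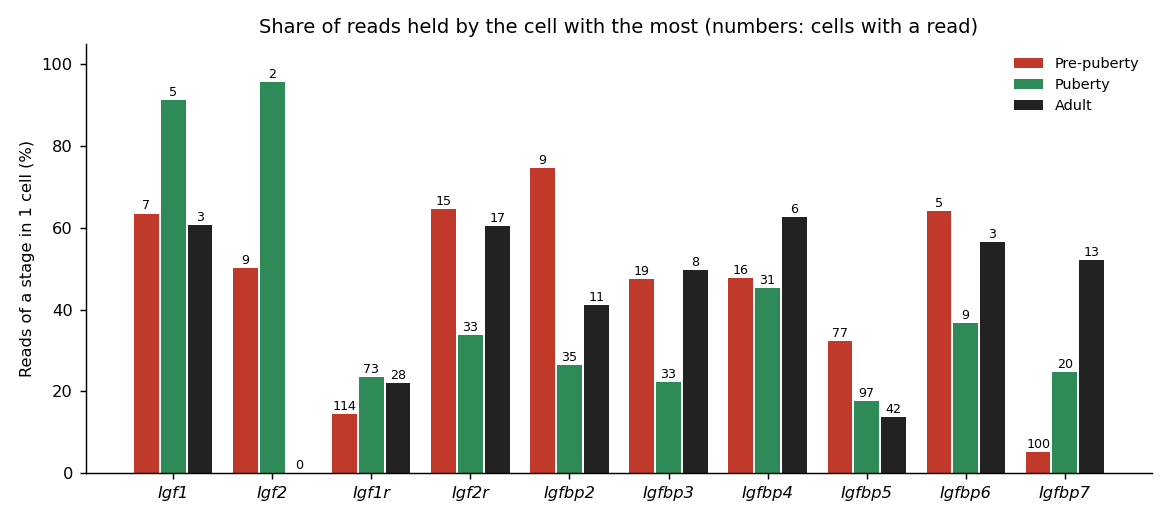
Share of a stage's reads of each gene that lay in the cell with the most (bars, percent, from 0), with the number of cells that had any read above each bar. The top cell held 91.3% of Igf1 and 95.6% of Igf2 reads at puberty, but 5.15% of Igfbp7 reads at pre-puberty and 13.7% of Igfbp5 reads in the adult. Igf2 had no adult read.

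**Figure D3:**
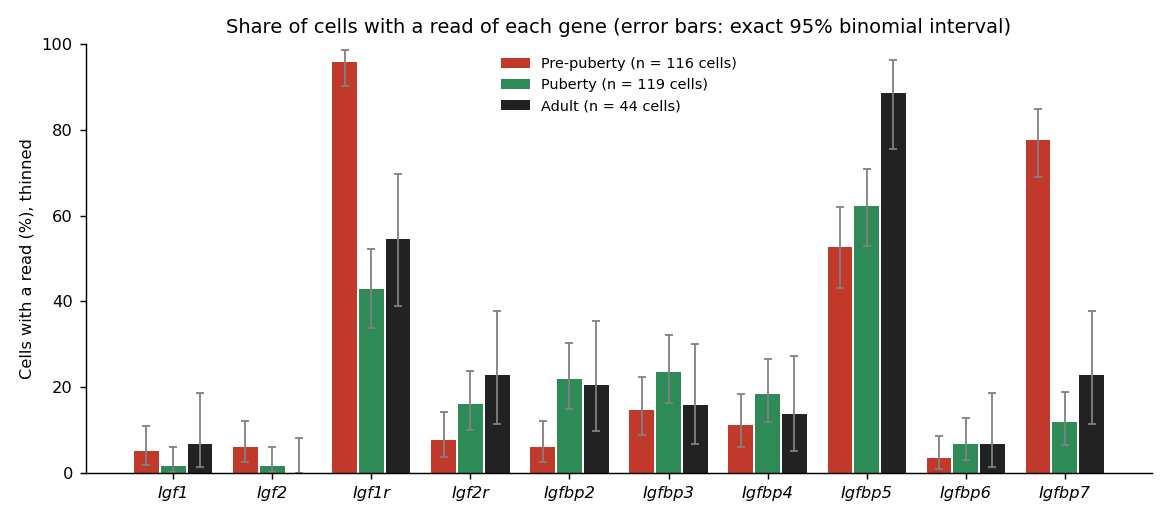
Share of cells with a read of each gene after thinning to 100000 reads, by stage, in percent, with exact 95% binomial intervals that cover counting error only. Igf1r (95.7%) and Igfbp7 (77.6%) lead at pre-puberty and Igfbp5 leads at puberty (62.2%) and in the adult (88.6%).

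Of the 10 members, 4 were more than 2-fold higher at pre-puberty than at puberty (Igf1, Igf2, Igf1r and Igfbp7), 4 were lower (Igfbp2, Igfbp4, Igfbp5 and Igfbp6) and 2 lay between (Igf2r and Igfbp3). All 10 reached 10 CPM at either stage, and among all genes that did so 45.5% were past 2-fold, 21.4% higher and 24% lower. The median log2 ratio was -0.70 over the members and -0.13 over the 9874 genes. Against the adult, 3 were higher at pre-puberty (Igf2, Igf1r and Igfbp7) and 4 lower (Igf1, Igf2r, Igfbp2 and Igfbp5), so 7 of the 9 members at 10 CPM were past 2-fold against 60.6% of genes (31.6% higher and 28.9% lower), with medians of -0.93 and 0.02. Both comparisons share the pre-pubertal cells. Between puberty and adult only Igfbp6 was higher and only Igf1 and Igfbp7 were lower, or 3 of 9 against 49% of genes (28.3% higher and 20.6% lower), with medians of 0.03 and 0.10. Without cells rich in fibroblast markers 7 members reached 10 CPM at pre-puberty or puberty, and 4 of them were past 2-fold between these stages (Igf1r and Igfbp7 higher, Igfbp2 and Igfbp5 lower), against 46.7% of genes in the same cells. For pre-puberty over adult the count was then 7 of 8 against 61.4%, and for puberty over adult 4 of 8 against 50.3%.

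The next comparison set cells by keratin, since Krt14 marks the basal and Krt8 and Krt18 mark the luminal layer of the mammary duct. A keratin was called present above 40 RPKM. At puberty 5 cells had Krt14 alone, 24 had Krt14 with Krt8 or Krt18, 80 had Krt8 or Krt18 alone and 10 had neither. In the adult the numbers were 5, 14, 22 and 3. At pre-puberty they were 10, 7, 2 and 97, so no such comparison was made there. The medians of basal markers were 10 of 14 in pubertal and 12 in adult cells with Krt14 alone, and 1 and 3 in those with Krt8 or Krt18 alone. Within 20 to 80 RPKM of Krt14, near the threshold, lay 4 pubertal and 5 adult cells.

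Of the 10 members, 3 were more than 2-fold higher in pubertal cells with Krt14 alone than in those with Krt8 or Krt18 alone (Igf1r, Igfbp2 and Igfbp7) and 2 were lower (Igf2r and Igfbp6). These were 5 of the 8 members at 10 CPM, where 72.7% of all genes were past 2-fold between the 5 and the 80 cells, 21.1% higher and 51.6% lower. In the adult 3 were higher (Igf1r, Igfbp2 and Igfbp3) and 3 lower (Igf1, Igf2r and Igfbp7), or 6 of 8 against 82.4% of genes (24.1% higher and 58.3% lower). Both member counts were near the share of genes in general. Median log2 ratios were 0.27 over the members against -1.16 over the genes at puberty, and -0.35 against -1.71 in the adult. For all Krt14-positive cells, compared below, the medians were 0.60 against -0.11 and 0.23 against -0.14. With only 5 cells in the class with Krt14 alone, single cells weighed heavily. The adult Igf1 ratio rested on 1 cell with Krt8 or Krt18 alone, which had all 105 reads of its class and 14 of 16 fibroblast markers, and it was 0.00 without that cell.

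All Krt14-positive cells, with or without Krt8 or Krt18, were therefore also set against those with Krt8 or Krt18 alone, a comparison chosen after seeing the data. At puberty, 29 against 80 cells, Igf1r, Igfbp2, Igfbp3 and Igfbp7 were higher and Igfbp6 was lower, or 5 of 8 members against 47.2% of genes (21.8% higher and 25.4% lower). The log2 ratio of Igf2r was then -0.41, inside 2-fold. In the adult, 19 against 22 cells, Igf1r, Igfbp2 and Igfbp3 were higher and Igf1, Igf2r and Igfbp7 were lower, or 6 of 8 against 70.7% of genes (33.5% higher and 37.2% lower). The Igf1 difference is again that of the same single cell. For adult Igfbp7 and Igf2r, too, 1 cell each with Krt8 or Krt18 alone weighed heavily. Without it, Igfbp7 stood at 35.4 CPM in Krt14-positive cells against 17.0 CPM, and Igf2r at 15.7 against 14.0 CPM. Among the Krt14-positive cells, however, 1 cell held 48.9% of the Igfbp7 reads and 1 held 96.7% of the Igf2r reads. Without the top cell of both classes Igfbp7 stood at 18.9 against 17.0 CPM. Igf2r then stood at 0.574 against 14.0 CPM, lower with Krt14. Igf2r was read in 10.5% of thinned Krt14-positive cells (1.30 to 33.1) against 27.3% (10.7 to 50.2). Igfbp6 lay under 10 CPM and outside that count, with 9.17 CPM from 70 reads against 0.0995 CPM from 1 read, a ratio of 92.2 with a counting interval of 16.0 to 3692. All 70 reads lay in 1 cell.

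Igfbp2 was higher with Krt14 at both stages. The 5 pubertal cells with Krt14 alone had 57.7, 50.4, 31.3, 13.1 and 2.27 CPM, and of the 80 with Krt8 or Krt18 alone 11 had any read and the highest had 47.0 CPM. All 5 of the first had a read after thinning, against 8.75% of the 80 (3.59 to 17.2). The summed levels were 28.9 CPM (23.9 to 34.6) in cells with Krt14 alone, 77.1 (72.5 to 82.0) in cells with both and 2.36 (1.93 to 2.85) in cells with Krt8 or Krt18 alone. In the adult they were 46.5, 24.5 and 0 CPM. The 0 reads in the 22 adult cells with Krt8 or Krt18 alone have an interval of up to 0.367 CPM. Counting 3 reads over that group, or 0.299 CPM, the level in cells with Krt14 alone was at least 155.8-fold higher. A single cell held 91.6% of the reads of that class, and without it the level was 5.14 CPM and the bound 17.2-fold.

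By summed reads, Igfbp3 was highest at puberty in the cells with both keratins, at 149.5 CPM (143 to 156.3). It stood at 11.49 CPM with Krt14 alone and 11.6 with Krt8 or Krt18 alone. A single cell held 29.3% of the reads of the class with both, and the level without it was 107.7 CPM. In the same order, the share of thinned cells with a read was 58.3% (36.6 to 77.9), 20% (0.505 to 71.6) and 12.5% (6.16 to 21.8). Before thinning, 62.5% of the cells with both keratins and 60% of the 5 with Krt14 alone had a read. In the adult the 5 cells with Krt14 alone had 1019, 269, 3.86, 0 and 0 CPM, while 1 read was seen in the 22 cells with Krt8 or Krt18 alone. The ratio of these levels was 2331, with a counting interval of 416 to 92278, and it was 782 without the cell with the most reads. At a lower keratin threshold of 10 RPKM only 1 adult cell had Krt14 alone, and the log2 ratios of Igfbp2 and Igfbp3 were both 0.00.

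**Figure D4:**
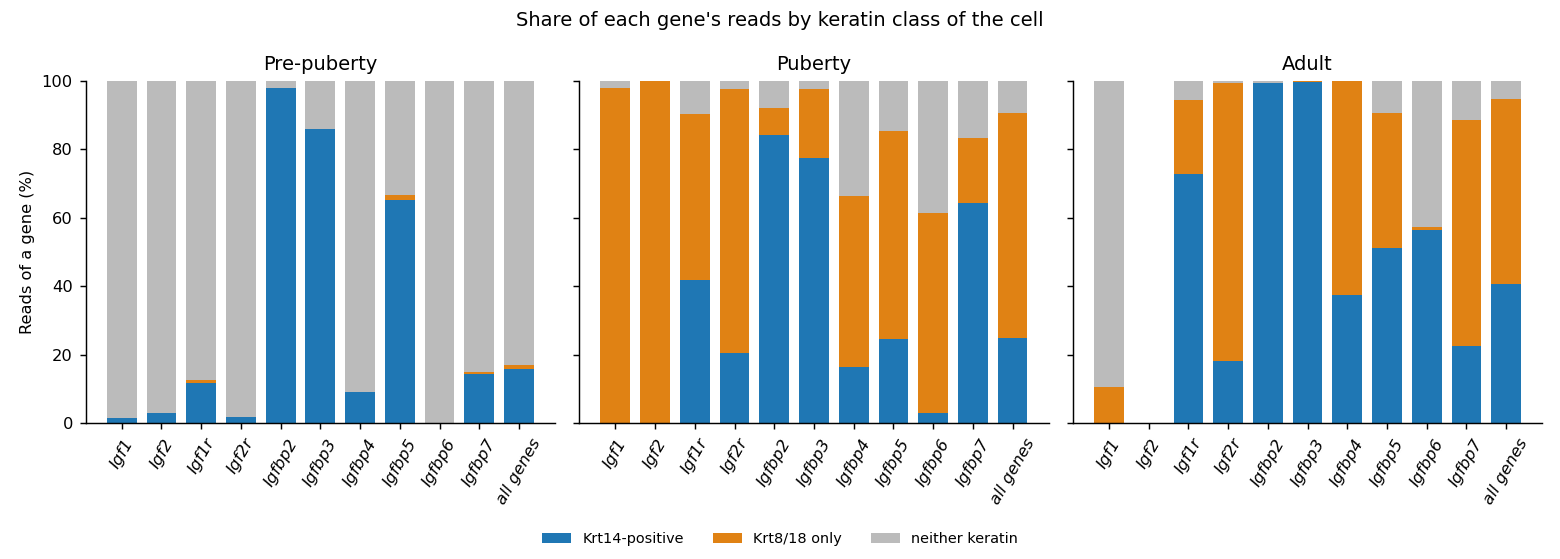
Percent of each gene's reads that lay in Krt14-positive cells, in cells with Krt8 or Krt18 alone and in cells with neither keratin, by stage, with all genes as the last bar. Igfbp2 and Igfbp3 lie above the share of all genes in Krt14-positive cells at each stage (97.8% and 86.0% against 15.9% at pre-puberty), and Igf2r lies mostly in cells with Krt8 or Krt18 alone at puberty (76.9%, against 65.7% of all genes' reads) and in the adult (81.3% against 53.8%, with 74.4% of the class in 1 cell). Igf2 has no adult bar because it had no read.

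Igf1r was higher with Krt14 in the adult and rested on 1 cell at puberty. The 5 adult cells with Krt14 alone had 587, 574, 435, 32.9 and 1.99 CPM, and the 22 with Krt8 or Krt18 alone ranged from 0 to 199 CPM with a median of 1.32. The summed levels were 334 CPM (310 to 360) and 30.0 (26.7 to 33.5), a log2 ratio of 3.28. When keratins were called from any read after thinning, 2 cells against 14, the ratio was -0.25. At puberty the 5 cells had 1563, 34.0, 29.6, 2.62 and 2.01 CPM, so that 1 cell held 95.6% of the reads and the log2 ratio of 2.30 became -0.70 without the top cell of each class. By share of thinned cells, Igf1r was seen in 69.0% of all 29 Krt14-positive pubertal cells (49.2 to 84.7) and 30% of the 80 others (20.3 to 41.3), and in 73.7% (48.8 to 90.9) and 36.4% (17.2 to 59.3) in the adult.

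By summed reads, Igf2r went the other way in cells with Krt14 alone. It had 1 read in the 5 pubertal cells with Krt14 alone and 1028 in the 80 with Krt8 or Krt18 alone, or 0.245 and 22.9 CPM, a ratio of 93.5 in favour of the latter with a counting interval of 16.7 to 3695. In the adult there were 2 and 535 reads, or 0.979 and 53.2 CPM, a ratio of 54.4 (15.0 to 450). Without the cell with the most reads the ratios were 53.3 and 14.3. The share of thinned cells with a read was 20% (11.9 to 30.4) and 27.3% (10.7 to 50.2) in cells with Krt8 or Krt18 alone. In the 5 cells with Krt14 alone it was 0% at each stage, with an interval of 0 to 52.2 that overlaps these. Over all Krt14-positive cells the level was 16.0 CPM at puberty, inside 2-fold of 22.9, and 15.7 CPM in the adult. In cells with both keratins the level was 21.0 CPM at puberty, where 1 cell held 93.1% of the reads, and 21.1 CPM in the adult, where 1 cell held 98.3%. In adult cells with Krt8 or Krt18 alone 1 cell held 74.4%.

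Summed levels of Igfbp5 in the 3 keratin-positive classes lay within 2-fold of each other at each stage. It stood at 1719 CPM (1679 to 1760) with Krt14 alone, 1600 (1579 to 1622) with both keratins and 1537 (1525 to 1548) with Krt8 or Krt18 alone at puberty, and at 1856, 3158 and 1646 CPM in the adult. The cells differed more than the sums. The median cell had 1413, 1615 and 5.72 CPM at puberty and 1721, 2354 and 39.2 CPM in the adult. All 24 pubertal cells with both keratins had a read after thinning, against 48.8% of the 80 with Krt8 or Krt18 alone (37.4 to 60.2), where 1 cell held 28.7% of the reads.

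For the other members the classes gave less. Igfbp7 stood at 60.2 CPM with Krt14 alone and 7.71 with Krt8 or Krt18 alone at puberty, where 1 cell held 86.6% of the reads of the first class and another 87.0% of those of the second. Without these cells the levels were 10.3 and 1.01 CPM and the log2 ratio went from 2.36 to 1.35. The adult levels were 29.9 and 78.0 CPM, where 1 cell held all reads of the first class and another 79.0% of those of the second. Igfbp4 was read in all 5 pubertal cells with Krt14 alone and in 7.5% of those with Krt8 or Krt18 alone (2.80 to 15.6), yet the summed levels were 55.3 and 41.3 CPM because 1 cell of the latter, with 14 fibroblast markers, held 90.5% of its class. Igf1, Igf2 and Igfbp6 had 0 reads in cells with Krt14 alone at both stages. The lower pubertal Igfbp6 level in these cells was no longer past 2-fold without fibroblast-rich cells. Of the adult Igf1 reads, 892 of 997 lay in 2 of the 3 cells with neither keratin.

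**Figure D5:**
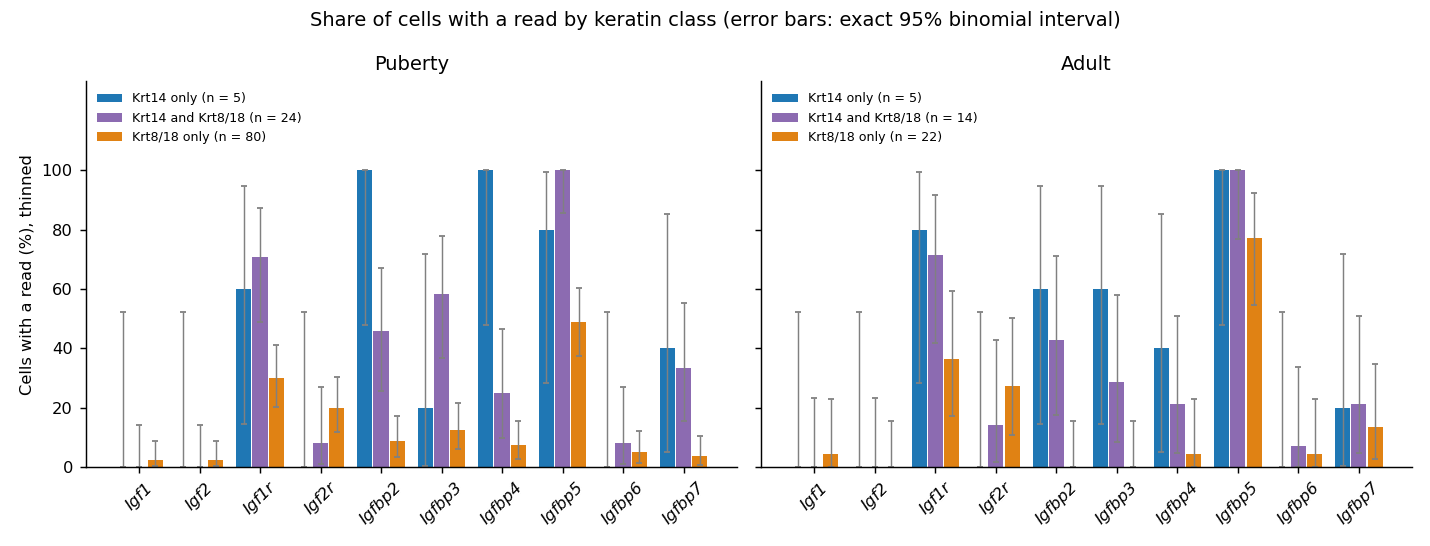
Share of thinned cells with a read of each gene in cells with Krt14 alone, with Krt14 and Krt8 or Krt18, and with Krt8 or Krt18 alone, at puberty (5, 24 and 80 cells) and in the adult (5, 14 and 22 cells), in percent with exact 95% binomial intervals. Igfbp2 was read in 100%, 45.8% and 8.75% of pubertal cells, and Igf2r in 0%, 8.33% and 20%. Intervals of the classes of 5 cells are wide.

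Within a cell, 2 or more binding protein genes were read together in 60 pre-pubertal, 54 pubertal and 19 adult cells. Thinned pre-pubertal cells had reads of a median of 2 of the 6 binding protein genes, and pubertal and adult cells of 1. No binding protein gene was read in 12 of 116, 38 of 119 and 5 of 44 cells, and the 38 pubertal cells all had Krt8 or Krt18 alone. Pubertal cells with both keratins had a median of 2, and 23 of the 24 had at least 2. Igfbp7 was the highest binding protein by RPKM in 77 of the 113 pre-pubertal cells with any read of the 6 genes, and Igfbp5 in 75 of 100 pubertal and 37 of 42 adult cells. Igf1r and Igfbp5 were read together in 59, 44 and 24 cells, and Igf1r without Igfbp5 in 52 pre-pubertal, 7 pubertal and 0 adult cells.

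The other genes of the pathway were followed from a list of 29 genes, which holds binding protein proteases and their inhibitors, receptor substrates and kinases downstream. Of the 22 that reached 10 CPM at either stage, 5 were more than 2-fold higher at pre-puberty than at puberty and 1 was lower, against 45.5% of all genes in either direction, with a median log2 ratio of 0.19. Against the adult 12 of 22 were higher at pre-puberty and 5 lower, or 17 of 22 against 60.6% of genes, with a median of 1.10. For puberty over adult 9 of 20 were higher and 8 lower, or 17 of 20 against 49% of genes. The insulin receptor substrate Irs1, which relays signals from Igf1r, stood at 97.1, 16.9 and 87.6 CPM at the 3 stages, and 1 cell held 62.6% of its pre-pubertal reads. H19, the imprinted noncoding neighbour of Igf2, stood at 65.3, 4.83 and 0.0535 CPM, and 1 cell held 73.2% of its pre-pubertal reads.

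The genes that act on binding proteins were split by keratin class. Pappa encodes a protease that cleaves IGFBP-4 and IGFBP-5, and Stc2 encodes stanniocalcin-2, an inhibitor of that protease. Pappa stood at 170 CPM (164 to 176) in the 29 pubertal Krt14-positive cells and 7.25 (6.48 to 8.08) in the 80 cells with Krt8 or Krt18 alone. These classes held 2911 and 326 of its 6356 pubertal reads. The rest lay in the 10 cells with neither keratin, which held 9.26% of the reads of all genes, so Pappa was not highest in Krt14-positive cells. In the adult it stood at 59.6 CPM (54.3 to 65.4), with reads after thinning in 3 of 19 cells, and at 0 in the 22 cells with Krt8 or Krt18 alone. Stc2 went the other way, with 52.1 and 119 CPM at puberty and 209.5 and 458 CPM in the adult, and 1 cell held 66.4% of the reads of adult Krt14-positive cells.

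At pre-puberty Stc2 had 3 reads in all, or 0.0737 CPM, while Pappa stood at 59.0 CPM. Stc2 was also one of the 8 mature luminal markers, so it was also among the genes used to check the classes. The serine protease Htra1, which also cleaves binding proteins, stood at 198 CPM in pubertal Krt14-positive cells and 2.65 in those with Krt8 or Krt18 alone, but at 2.62 and 2.79 CPM in the adult. The insulin receptor Insr, which binds insulin and IGF-II and pairs with Igf1r, was read in 19.8%, 20.2% and 15.9% of thinned cells of the 3 stages.

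Likeness of expression was measured across single cells as Pearson's r of log2(CPM + 10) of thinned counts, in the stage where a member had its highest share. Only Igf1r, Igfbp5 and Igfbp7 were read in at least 25% of cells of any stage. Across the 44 adult cells Igfbp5 was most like Lcn2 (r = 0.72), a secreted iron-carrier binding protein, Cebpb (0.69), a transcription factor of mammary development, and Errfi1 (0.67), an inhibitor of the EGF receptor. The same pairs had r of 0.66, 0.40 and 0.32 over the 119 pubertal cells, and 0.46, 0.24 and 0.15 over the 116 pre-pubertal cells. The points are single cells of 1 stage each at 1 thinned depth, and the values are descriptions. For Igf1r and Igfbp7 at pre-puberty no gene reached r of 0.5, the highest being Chl1 (0.37) and Malat1 (0.41).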

How the data were processed

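Single-cell RNA-seq of sorted mammary cells was deposited as counts, whole numbers of read pairs per gene and cell that were not normalised. To make these counts the authors used Subread 1.4.6, featureCounts and the mm10 genome, per the labels, with the RefSeq annotation built into Rsubread, per the study's methods. Treatment of read pairs shared between genes and of strand was not stated, and the protocol has no molecular identifiers. Gene lengths deposited by the authors were used only for RPKM.

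Of 27179 genes, 25275 matched a symbol in RefSeq GRCm38.p6. Genes without a match (1904), mitochondrial (15) and ribosomal protein (89) genes were removed. Cells with 100000 reads and 1500 genes were kept, as in the study, and no doublet caller was run because wells had been inspected by the authors. No 2 cells held identical counts. Total reads were the scale for CPM. Log2 ratios were taken after adding 5 CPM, which understates changes of low genes, and 2-fold meant a log2 ratio past 1. Where a group had 0 reads, 3 reads over the group set the bound. Cells were thinned at random to 100000 reads for shares. No test was made because each stage is 1 sample.

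The 10 members, the 29 pathway genes, the marker lists and the rule for named genes (all members, pathway genes with 10 CPM in either group, and genes with r of at least 0.5) were chosen with earlier results of these data known. Gene coordinates and promoters came from RefSeq, and strands and exon overlaps from the GENCODE annotation of GRCm38. Python 3.11.15, numpy 2.4.6, scipy 1.17.1, pandas 2.3.3 and, for TMM scaling, edgeR 4.0.16 were used, and the calculations were checked on simulated cells. The alternatives tried are given with their effects below.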

Additional observations from a re-analysis of the deposited data

Results flagged for a closer look

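Igfbp3 differed in opposite directions between stages in the 2 keratin classes. Its log2 ratio of puberty over adult was -3.84 in cells with Krt14 alone, 5 at each stage, and 1.70 in cells with Krt8 or Krt18 alone. In the first class 1 cell held 89.4% of the pubertal and 71.9% of the adult reads. In the second class 1 cell held 54.6% of the pubertal reads, and the level went from 11.6 to 5.30 CPM without it. The adult cells of that class had 1 read. The difference was not tested.

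By summed reads, Igfbp7 changed sides between stages. Its log2 ratio of cells with Krt14 alone over cells with Krt8 or Krt18 alone was 2.36 at puberty and -1.25 in the adult. At puberty 1 cell held 86.6% of the reads of the first class and another 87.0% of those of the second, and in the adult these shares were 100% and 79.0%. Without the top cell of each class the ratios were 1.35 and -2.14, where the adult value sets 0 CPM against 17.0 CPM. With only the adult top cell of the second class left out, the levels were 29.9 and 17.0 CPM, so the first class was higher. The adult shares of thinned cells with a read were 20% and 13.6%. This difference was not tested either.

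Cells below the coverage filter, left out of all comparisons, also had reads of the members. The summed level of the 10 genes was 1106 CPM in 28 pre-pubertal, 5538 CPM in 17 pubertal and 2326 CPM in 22 adult cells, against 921, 1951 and 2566 CPM in the kept cells. In the pubertal cells below the filter 1 cell held 66.5% of these reads, and Igfbp6 stood at 1986 CPM with 99.9% in 1 cell.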

How the results depend on the processing

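Most of the 5 counts of members past 2-fold stayed within 1.5 times under the alternatives run. The exceptions were 5 in place of 3 members between puberty and adult in cells with 200000 to 600000 reads, all lower at puberty, and 4 in place of 8 between pre-puberty and puberty without cells rich in fibroblast markers. Single log2 ratios turned as follows. In the depth window Igfbp6 became 0.54 with pre-puberty set over puberty and -1.01 with puberty set over adult. At puberty the window left 1 cell with Krt14 alone against 41 with Krt8 or Krt18 alone. The log2 ratios of the first over the second then became -1.83 for Igf1r and -0.0579 for Igfbp7. Without the top cell of each class the same Igf1r ratio was -0.70. Without fibroblast-rich cells Igfbp6 became 0.0028 for pre-puberty over puberty. With keratins called from any read after thinning, the adult class ratio became 2.36 for Igf1 and -0.25 for Igf1r. Apart from fewer cells in the window and the removed cells themselves, the cause was not tested. Past their counting interval, 38 of 50 log2 ratios moved in the depth window, 36 without the top cells, 28 with the mean of cell CPM, 24 with 1 in place of 5 CPM added, 21 without fibroblast-rich cells, 16 with the stricter filter and 5 with TMM scaling, beside those that turned. A threshold of 40 RPKM in place of any read moved 32 of 70 shares.

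Leaving out cells rich in Schwann markers left 1 pre-pubertal cell, so no such value could be given for the comparisons with pre-puberty. In the keratin classes, where 5 cells stand on 1 side, it was run without a minimum of cells, as was the comparison of all Krt14-positive cells, both chosen after seeing the data. Replicates could not be left out because each stage is 1 sample. No paired analysis was possible because cell numbers shared between stages only name cells and no test was made. Depth limits low levels: 3 reads in the adult total correspond to 0.161 CPM.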
